A study of Mus musculus with 8 samples.

Results

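The Gimap genes (GTPases of immunity-associated proteins) were followed by RNA sequencing of sorted Lin-Sca1+Kit+ (LSK) cells, which include blood stem cells and early multipotent progenitors. The family was taken as the 8 genes Gimap1, Gimap3, Gimap4, Gimap5, Gimap6, Gimap7, Gimap8 and Gimap9 of mouse chromosome 6, matched by symbol among 26146 genes in the count table, and all 8 were among the 13439 genes that passed the filter on low counts. They were selected on symbol with the KO against wild type fold changes and CPM of the family already known from these libraries, so their values are given as a description and carry no test. There were 4 Jmjd6 KO libraries, from mice in whose blood-forming lineages a cell type specific Cre had removed a floxed Jmjd6, set against 4 wild type libraries. Nothing in the labels says whether the libraries of a genotype came from separate animals, so the errors and p-values measure the spread between these samples, which may be partly technical. The labels carry the deletion note for the wild type samples as well, and whether wild type mice had the floxed allele or the Cre, which Cre it was, the strain and the age were not given in the sources used here.

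Jmjd6 itself, which encodes an oxygenase that hydroxylates lysine residues of proteins, stood at 28.7, 28.1, 30.7 and 27.5 CPM in KO replicates 1 to 4 and at 52.5, 63.7, 54.6 and 63.7 CPM in wild type replicates 1 to 4, without overlap. Its log2 fold change was -1.03 with an SE of 0.15, and edgeR's quasi-likelihood test gave an adjusted p = 0.0381. CPM scale each count to a common library size after TMM adjustment. Kit, the receptor the LSK gate selects for, was at 463 ± 44.5 CPM in KO and 473 ± 22.4 CPM in wild type (SD, n = 4 each). Total counts per library ran from 9344779 to 15079960. KO replicate 3 and wild type replicate 4 had 0 counts of Y-linked genes and Xist at 893 and 1551 CPM, so each genotype held 1 such library. The other 6 libraries had 3660 to 4814 Y-linked counts, so each genotype held samples of more than 1 animal. KO replicate 4 and wild type replicate 2 stood apart in another way. Their 13 mRNAs encoded by the mitochondrial genome summed to 6160.0 and 2437 CPM, against 11136 to 21213 CPM in the other 6 libraries.

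Gimap proteins are small GTPases of lymphocytes, known for keeping resting T and B cells alive. Some of them are anchored to membranes of the endoplasmic reticulum, Golgi, lysosomes or mitochondria. Gimap5 is the best studied: its loss in rats and mice depletes T cells, and in mice it also impairs haematopoietic stem cells. The genes arose by duplication and lie side by side, and in the blood system they are used most in the lymphoid branch.

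The cluster spans 123.6 kb of chromosome 6, from 48647234 to 48770851 (mm10, GENCODE M21), in the order Gimap8, Gimap9, Gimap4, Gimap6, Gimap7, Gimap1, Gimap5 and Gimap3. Gimap6 and Gimap3 lie on the minus strand and the other 6 on the plus strand. Each protein binds GTP through a P loop, and the stretch that encodes it shows how close the copies are. The 24 coding bases of the P loop consensus were read from GENCODE M21 transcripts, and capitals mark the codons of its fixed residues.
Gimap1 (chr6:48742552-48742575, plus strand): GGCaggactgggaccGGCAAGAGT
Gimap3 (chr6:48765887-48765910, minus strand): GGCaaatctggctgcGGTAAAAGC
Gimap4 (chr6:48690421-48690444, plus strand): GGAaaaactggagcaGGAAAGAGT
Gimap5 (chr6:48752594-48752617, plus strand): GGCaaatctggctgcGGTAAAAGC
Gimap6 (chr6:48702750-48702773, minus strand): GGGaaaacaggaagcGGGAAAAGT
Gimap7 (chr6:48723524-48723547, plus strand): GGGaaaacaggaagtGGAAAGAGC
Gimap8 copy 1 (chr6:48650256-48650279, plus strand): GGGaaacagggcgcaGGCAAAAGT
Gimap8 copy 2 (chr6:48656119-48656142, plus strand): GGGaagcgtggtgttGGGAAAAGT
Gimap8 copy 3 (chr6:48658746-48658769, plus strand): GGAaggagtggggctGGAAAGAGT
Gimap9 (chr6:48677523-48677546, plus strand): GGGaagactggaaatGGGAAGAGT
Gimap8 held 3 copies of the consensus in 688 codons, whereas every other member held 1 copy in 291 to 328 codons. Gimap3 and Gimap5 were identical over these 24 bases, with 0 differences. Gimap6 and Gimap7 differed at 4 bases, and Gimap4 differed from Gimap7 at 6 and from Gimap5 at 9.

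Because reads can be shared by such copies, the transcripts were compared in windows of 50 bases. Gimap3 shared 7.52% of its windows with Gimap5, and Gimap5 shared 4.53% with Gimap3. No other pair of members shared a window. Gimap1 shares 1107 exon bases with Gimap1os, a noncoding transcript on the opposite strand, and no strand setting for the counting was given in the sources used here, so reads of one may be counted for the other. Gm28053, an annotated readthrough gene that is no row of the count table, shares 81 exon bases with Gimap7, 198 with Gimap1 and 153 with Gimap5.

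Gimap3, Gimap4 and Gimap7 were higher in Jmjd6 KO LSK cells than in wild type LSK cells, by 2.35 to 3.11 times, while Gimap1, Gimap5, Gimap6, Gimap8 and Gimap9 overlapped between the genotypes. The 3 higher members were among the 4 with the lowest level for their length.

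Gimap7, whose human counterpart dimerises with other GIMAP proteins, had 30.6, 31.1, 25.2 and 40.0 CPM in KO replicates 1 to 4, against 10.49, 14.4, 15.1 and 13.9 CPM in wild type replicates 1 to 4. The lowest KO library was well above the highest wild type library. The means were 31.7 ± 6.13 CPM in KO and 13.5 ± 2.05 CPM in wild type (SD, n = 4 each), a ratio of 2.35 and a log2 fold change of 1.23 (SE 0.21).

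Gimap4, reported to speed the death of T cells, had 12.8, 18.1, 7.02 and 17.1 CPM in KO replicates 1 to 4, against 4.42, 4.19, 6.43 and 2.65 CPM in wild type replicates 1 to 4. The groups were separate, with KO replicate 3 only just above wild type replicate 3. The ratio of the means, 13.8 ± 5.05 CPM in KO and 4.42 ± 1.55 CPM in wild type (SD, n = 4 each), was 3.11, and the log2 fold change was 1.65 (SE 0.36), the largest of the family.

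Gimap3, the close copy of Gimap5 that has been tied to the segregation of mitochondrial DNA in mouse blood cells, had 12.9, 14.9, 8.62 and 11.6 CPM in KO replicates 1 to 4, against 2.65, 4.32, 6.93 and 5.67 CPM in wild type replicates 1 to 4. Again KO replicate 3 was the lowest KO library and still above all wild type libraries. The means were 12.0 ± 2.64 CPM in KO and 4.89 ± 1.84 CPM in wild type (SD, n = 4 each), with a ratio of 2.46 and a log2 fold change of 1.29 (SE 0.32).

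**Figure D1:**
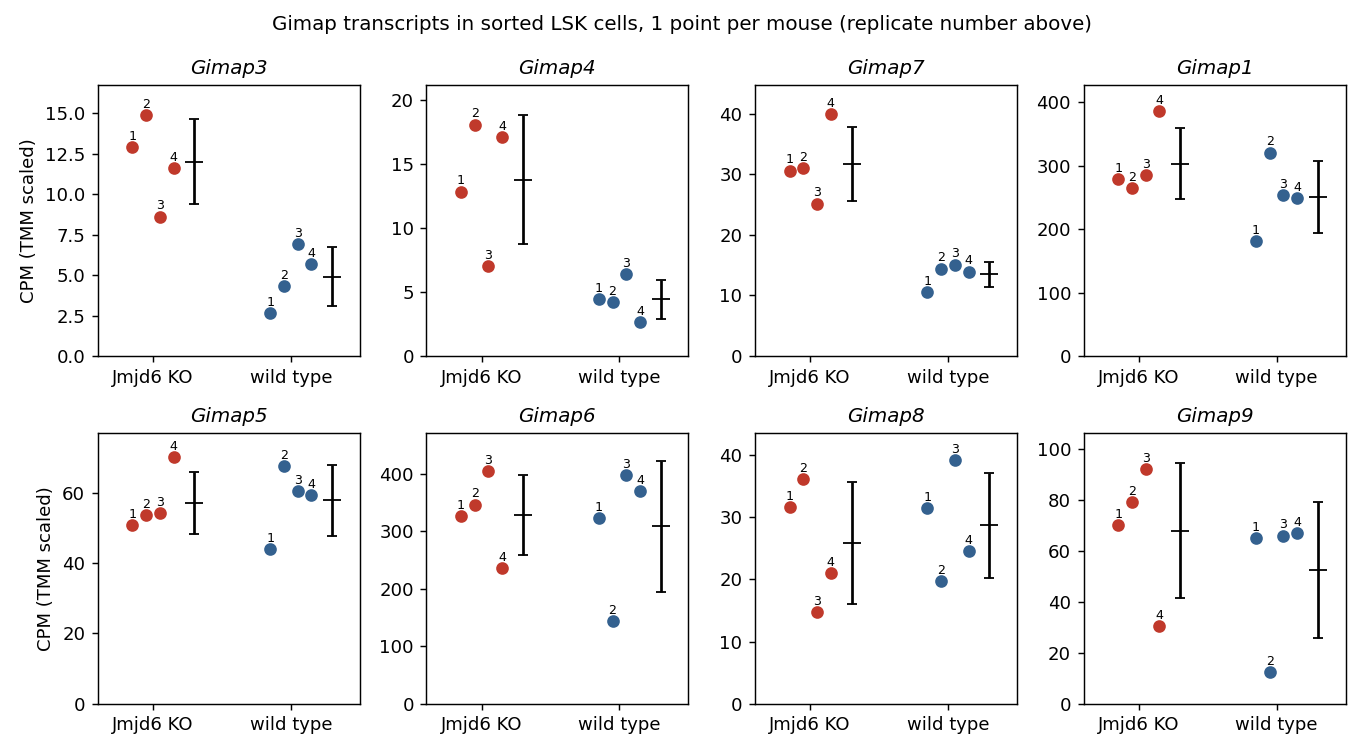
CPM of the 8 Gimap genes in each library (y axis, TMM scaled, from 0), with Jmjd6 KO libraries in red and wild type libraries in blue, replicate numbers above the points, and mean ± SD as black bars. Each point is a library. The title counts points by mouse, but the labels do not say that each library came from its own mouse. Gimap3, Gimap4 and Gimap7 have every KO point above every wild type point; the other 5 panels overlap, and KO replicate 4 and wild type replicate 2 are the low points of Gimap6 and Gimap9.

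Gimap5, the membrane-bound survival factor, had 50.9, 53.7, 54.2 and 70.2 CPM in KO replicates 1 to 4, against 43.9, 67.8, 60.6 and 59.4 CPM in wild type replicates 1 to 4. The means were 57.2 ± 8.76 CPM in KO and 57.9 ± 10.02 CPM in wild type (SD, n = 4 each), a log2 fold change of -0.02 (SE 0.18). The 2 close copies thus had unequal differences: Gimap3 counts were 25.4%, 27.8%, 15.9% and 16.6% of Gimap5 counts in KO replicates 1 to 4, against 6.03%, 6.38%, 11.4% and 9.55% in wild type replicates 1 to 4.

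Gimap1, which mature T and B cells need to persist, had 279, 265, 285 and 386 CPM in KO replicates 1 to 4, against 181, 321, 253 and 249 CPM in wild type replicates 1 to 4. The log2 fold change was 0.27 (SE 0.19), with overlap between the groups. Gimap1os had 36.0, 40.1, 42.6 and 53.4 CPM in KO replicates 1 to 4, against 34.3, 50.3, 49.0 and 48.3 CPM in wild type replicates 1 to 4, with a log2 fold change of -0.08 (SE 0.19) and an edgeR adjusted p = 0.941. It amounted to 12.9% to 15.2% of the Gimap1 count in KO libraries and to 15.7% to 19.4% in wild type libraries.

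Gimap6, which binds an autophagy protein of the GABARAP family, had 326, 346, 404 and 236 CPM in KO replicates 1 to 4, against 323, 144, 397 and 370.5 CPM in wild type replicates 1 to 4. Gimap9 had 70.0, 79.1, 92.1 and 30.5 CPM in KO replicates 1 to 4, against 64.9, 12.5, 66.0 and 67.0 CPM in wild type replicates 1 to 4. In both genes KO replicate 4 and wild type replicate 2 were the lowest of their genotype. Their log2 fold changes were 0.09 (SE 0.28) and 0.37 (SE 0.45). Without wild type replicate 2 the value of Gimap9 was 0.04 and that of Gimap6 was -0.15.

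Gimap8, the largest protein of the family, had 31.7, 36.2, 14.7 and 21.0 CPM in KO replicates 1 to 4, against 31.5, 19.7, 39.2 and 24.5 CPM in wild type replicates 1 to 4. The spread within each genotype was wider than the difference between the means of 25.9 CPM in KO and 28.7 CPM in wild type, and the log2 fold change was -0.15 (SE 0.30).

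Over all 13439 genes, 279 or 2.08% had every KO library above every wild type library, and 3 of the 8 Gimap genes were among them, the 3 named. A log2 fold change above 1 was seen in 0.893% of genes and in the same 3 members. The median log2 fold change was 0.32 over the 8 members and 0.00 over all genes tested. By edgeR 0.0595% of all genes passed an adjusted p of 0.05, 0.0298% higher and 0.0298% lower in KO, and 6.06% had an unadjusted p under 0.05. DESeq2 called 0.492% of genes and limma voom 0.231%. No call is given for the members, because their values come from the contrast that chose them. For the same reason nothing is read from the member counts above. In bulk RNA, more cells of a type that express a gene and more RNA of it per cell cannot be told apart.

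**Figure D2:**
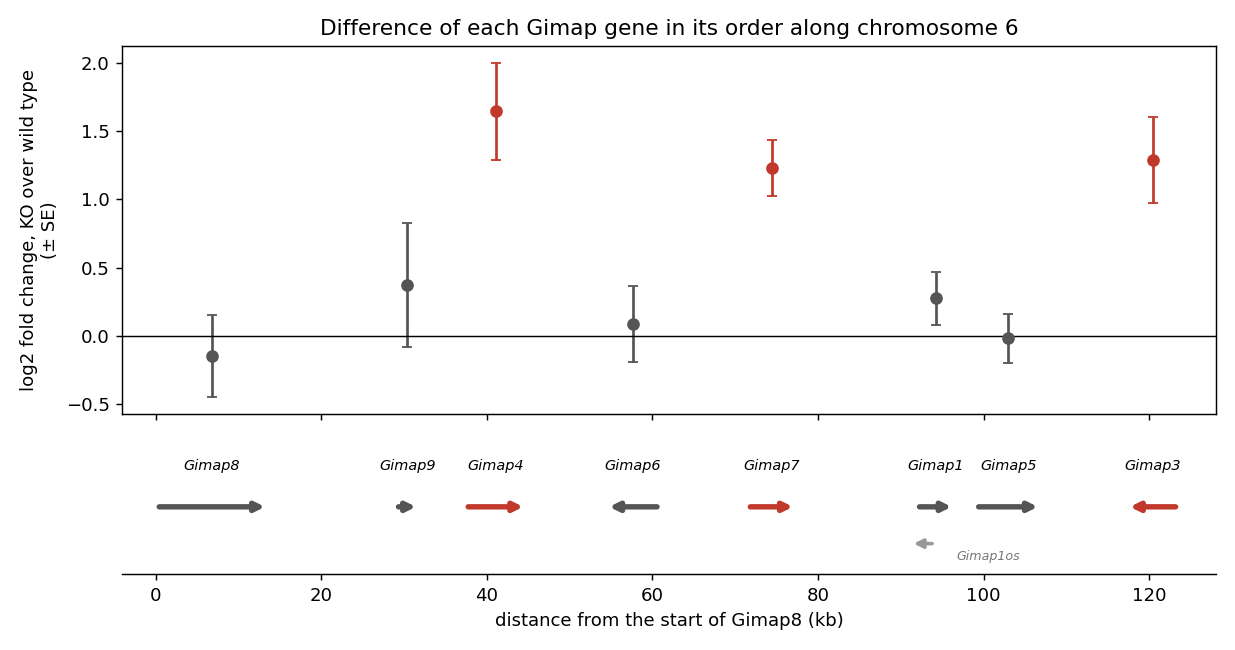
Log2 fold change of KO over wild type (y axis, points ± SE of the edgeR fit) of each Gimap gene against its distance from the start of Gimap8 in kb (x axis), with gene arrows pointing in the direction of transcription below. The 3 higher members (red) lie at 1.23 to 1.65 and alternate with members between -0.15 and 0.37 (grey).

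The higher members were not neighbours of one another in the cluster. Gimap9 lies before Gimap4 and Gimap6 after it, Gimap1 and Gimap5 lie between Gimap7 and Gimap3, and the direction of transcription differed among the 3, with Gimap4 and Gimap7 on the plus strand and Gimap3 on the minus strand.

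Promoter windows of 300 bases, from 250 before to 50 after the start of transcription, were taken from RefSeq (GRCm38.p6), which held all 8 members and 2 windows for Gimap8. Motif positions below are counted from the RefSeq start. As an unbroken run, the last bases of the Gimap4 and Gimap6 windows were in no GENCODE M21 transcript of these genes. Each window was searched on both strands for 8 motifs of factors that act in blood cells, among them GGAAGT, the core bound by ETS factors, and TGTGGT, the core bound by RUNX factors. The windows of Gimap4 and Gimap7 are shown for the higher members and those of Gimap6 and Gimap9 for the pair that varied together between libraries; capitals mark the ETS and RUNX matches, and each sequence reads along the gene's own strand.
Gimap4 (chr6:48684328-48684627, plus strand): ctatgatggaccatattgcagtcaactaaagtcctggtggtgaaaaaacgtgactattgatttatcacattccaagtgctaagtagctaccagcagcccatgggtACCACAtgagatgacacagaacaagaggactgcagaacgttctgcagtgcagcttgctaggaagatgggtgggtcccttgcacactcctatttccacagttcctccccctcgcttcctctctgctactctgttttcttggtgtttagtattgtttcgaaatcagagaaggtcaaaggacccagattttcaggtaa
Gimap7 (chr6:48718371-48718670, plus strand): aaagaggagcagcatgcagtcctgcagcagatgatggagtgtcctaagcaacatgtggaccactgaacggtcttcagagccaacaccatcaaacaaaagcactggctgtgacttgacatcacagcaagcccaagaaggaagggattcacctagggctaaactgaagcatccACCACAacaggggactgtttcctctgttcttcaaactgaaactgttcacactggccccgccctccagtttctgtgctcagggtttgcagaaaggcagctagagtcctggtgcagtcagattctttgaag
Gimap6 (chr6:48708195-48708494, minus strand): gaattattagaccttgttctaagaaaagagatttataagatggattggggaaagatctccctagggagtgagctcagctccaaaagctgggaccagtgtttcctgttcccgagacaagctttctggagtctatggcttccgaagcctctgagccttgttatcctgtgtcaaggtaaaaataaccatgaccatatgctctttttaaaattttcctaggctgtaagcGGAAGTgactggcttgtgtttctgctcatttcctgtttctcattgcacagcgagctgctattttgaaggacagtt
Gimap9 (chr6:48675885-48676184, plus strand): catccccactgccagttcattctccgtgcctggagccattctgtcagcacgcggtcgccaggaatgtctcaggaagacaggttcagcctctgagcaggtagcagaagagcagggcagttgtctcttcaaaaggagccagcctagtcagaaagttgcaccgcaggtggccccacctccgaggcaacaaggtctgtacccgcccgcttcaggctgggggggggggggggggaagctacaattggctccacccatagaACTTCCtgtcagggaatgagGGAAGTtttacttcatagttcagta
Gimap4 held a RUNX core at -145 and Gimap7 at -79 from the start, and Gimap1 held another at -95. Gimap9 held ETS cores at 6 and 26, Gimap6 at -25, Gimap1 at 2 and Gimap5 at -216 and -44. The windows of Gimap3 and Gimap8 held neither. Among 32851 promoter windows, 23.8% hold the ETS core and 16.8% the RUNX core, against 4 and 3 of the 8 members. The 2 cores did not overlap in these windows. The STAT motif TTCNNNGAA was in 4 members, Gimap3, Gimap6, Gimap7 and Gimap8, and in 8.30% of all windows. The TCF and LEF motif CTTTGAA was in Gimap7, where it overlaps the STAT match, and in 5.14% of windows, and the E box CAGGTG was in Gimap9 and in 20.2% of windows. An IRF response element, the GATA motif AGATAA and the CRE TGACGTCA were in 0 of the 8 members and in 3.44%, 11.2% and 1.79% of windows. None of the 8 motifs was in all 3 higher members.

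Compared per kb of annotated exon, the members differed widely in level. Gimap1 and Gimap6 were highest, with 98.7 ± 18.0 and 93.9 ± 19.9 CPM per kb in KO and 81.6 ± 18.6 and 88.3 ± 32.6 CPM per kb in wild type (SD, n = 4 each), and did not differ beyond their spread. They lay at the percentiles 95.3 and 95.4 of the 13187 tested genes with a length. Gimap9 followed at 41.4 ± 16.2 CPM per kb in KO and 32.0 ± 16.3 CPM per kb in wild type.

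Gimap5 stood at 13.8 ± 2.11 CPM per kb in KO and 14.0 ± 2.42 CPM per kb in wild type. Gimap7 reached 13.6 ± 2.64 CPM per kb in KO, the level of Gimap5, but 5.798 ± 0.880 CPM per kb in wild type, below Gimap5. Gimap8, Gimap4 and Gimap3 had 6.999 ± 2.65, 7.496 ± 2.75 and 4.66 ± 1.02 CPM per kb in KO and 7.76 ± 2.29, 2.41 ± 0.845 and 1.90 ± 0.713 CPM per kb in wild type. Gimap4 was at the level of Gimap8 in KO and below it in wild type. Of the family's summed level per kb, Gimap7 made up 3.61% to 6.48% in KO libraries and 2.07% to 3.36% in wild type libraries, Gimap3 1.12% to 2.03% in KO and 0.472% to 0.982% in wild type, and Gimap4 1.28% to 3.51% in KO and 0.558% to 1.28% in wild type. The share of Gimap4 overlapped between genotypes through KO replicate 3, while those of Gimap3 and Gimap7 did not overlap.

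Apart from genotype, the members did not vary as a block. Each gene's log2 CPM was set against the mean of its own genotype, which removes the difference between KO and wild type. Over the 8 libraries Gimap6 and Gimap9 deviated together (Pearson's r = 0.98, Spearman's rho = 0.95), as did Gimap1 and Gimap5 (r = 0.97, rho = 0.95), and Gimap7 went with Gimap5 (r = 0.85, rho = 0.90; r = 0.58 without the 2 libraries farthest from the median of Gimap5). These are descriptions over 8 libraries that share depth and handling, picked as the closest of all pairs of members, with no test.

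The tie of Gimap6 to Gimap9 rested in part on KO replicate 4 and wild type replicate 2, without which r was 0.85 over 6 libraries. On the log2 scale Gimap9 deviated by -1.04 in KO replicate 4 and by -1.79 in wild type replicate 2, and Gimap6 by -0.45 and -0.998. The summed mitochondrial mRNAs deviated by -0.99 and -2.01 in the same libraries. Across 13187 genes the deviations within these libraries also went with the GC content of the gene, at a Spearman rho of 0.245 and 0.542, against values from -0.399 to 0.206 in the other 6; genes are not independent replicates. Gimap9 has 42.6% GC, Gimap6 46.7% and Gimap1 57.0%, against a median of 49.6% over the tested genes. The others were Gimap8 at 41.3%, Gimap4 at 43.3%, Gimap5 at 46.8%, Gimap7 at 48.1% and Gimap3 at 51.0%. In KO replicate 4 and wild type replicate 2, Gimap8 deviated by -0.22 and -0.49. Gimap4 deviated there by 0.40 and -0.01, and Gimap5, close to Gimap6 in GC, by 0.31 and 0.24. Gimap7 and Gimap3 deviated there by 0.35 and 0.11 and by -0.02 and -0.09. The part of these library properties in the Gimap6 and Gimap9 values was not tested.

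Gimap1 and Gimap5 ran the other way, at 0.36 and 0.31 above the KO mean in KO replicate 4 and 0.38 and 0.24 above the wild type mean in wild type replicate 2. Their r was 0.96 without these libraries and 0.95 without wild type replicates 1 and 2, the farthest from the median. Of the 3 higher members, Gimap3, Gimap4 and Gimap7 kept log2 fold changes of at least 1.13 with both libraries left out, a choice made after seeing the data. KO replicate 3 was the lowest KO library for all 3, with deviations from the KO mean of -0.45 for Gimap3, -0.87 for Gimap4 and -0.31 for Gimap7.

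**Figure D3:**
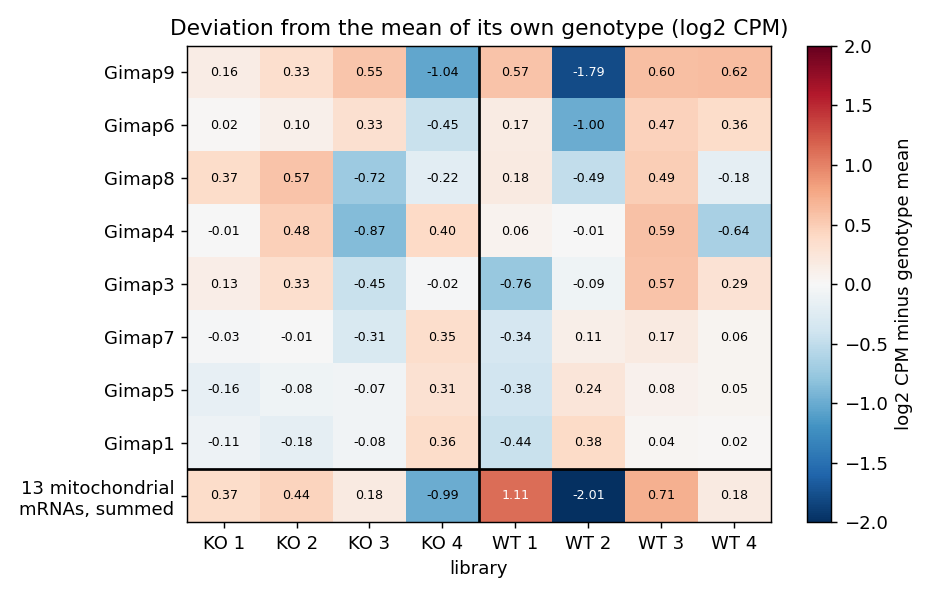
Log2 CPM minus the mean of the same genotype for the 8 Gimap genes and for 13 mitochondrially encoded mRNAs summed (rows) in each library (columns, KO left of wild type). Gimap9 and Gimap6 are low where the mitochondrial mRNAs are low, in KO 4 and WT 2, while Gimap1 and Gimap5 are high there.

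The genes outside the family whose deviations were most like the mean deviation of the 8 members, among those with a mean log2 CPM above 3, were Elk3, an ETS factor gene (r = 0.96), Sms, which encodes spermine synthase (0.92), Slfn5 (0.92), Wdr59 (0.90), Dock9 (0.90), Ccdc71l (0.90), Tmem168 (0.89) and Dnah8 (0.88). With single libraries left out Elk3 stayed between 0.92 and 0.97. These genes were picked as the highest of all genes ranked above that level. A high r over 8 libraries that holds without 1 of them thus comes in part from the choice, and no test was made. The mean also joins members that deviated in opposite ways, such as Gimap1 and Gimap9 (r = -0.80). Elk3 gave -0.11 (SE 0.15) between genotypes on the log2 scale, with an edgeR adjusted p = 0.901. Slfn5, an interferon-inducible gene, had 9.15, 11.3, 8.54 and 7.44 CPM in KO replicates 1 to 4, against 14.4, 12.0, 21.6 and 17.7 CPM in wild type replicates 1 to 4, without overlap, and its log2 fold change of -0.85 (SE 0.25) had an edgeR adjusted p = 0.553.

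Genes beside the cluster were examined to see whether the differences extended past it. Within 1 Mb on either side 28 genes other than the members were tested, Gimap1os among them, and 0 passed by edgeR, 2 had an unadjusted p under 0.05, and 0 passed by DESeq2 or limma voom. Over all genes the shares were 0.0595% by edgeR, 6.06% at an unadjusted p under 0.05, 0.492% by DESeq2 and 0.231% by limma voom, so with 28 genes these counts are near the background. Their log2 fold changes ran from -0.70 to 0.90 with a median of -0.03, 13 above and 15 below 0. The nearest tested gene before Gimap8, AI854703, 13.5 kb away, gave 0.36 (SE 0.23), and the nearest after Gimap3, Tmem176b, 63.0 kb away and encoding a membrane protein of myeloid and dendritic cells, gave 0.15 (SE 0.17). The smallest p belonged to Zfp783 at -0.70, Zfp786 at 0.90, Zfp212 at 0.38 and Zfp467 at -0.64, zinc finger genes or pseudogenes of the side before Gimap8, the nearest of them 201 kb away, with adjusted p of 0.583, 0.811, 0.811 and 0.832 by edgeR.

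**Figure D4:**
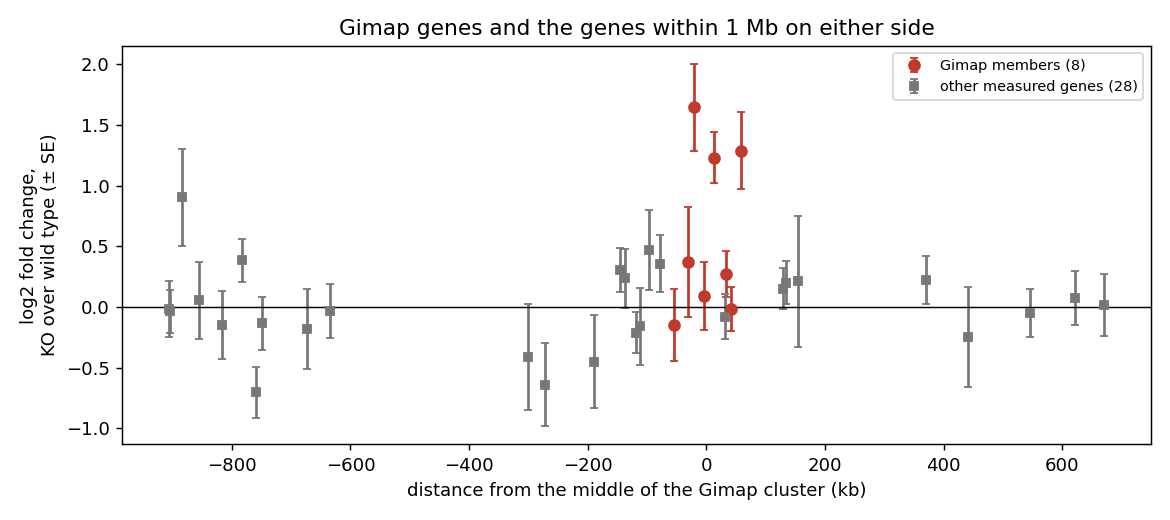
Log2 fold change of KO over wild type (y axis, ± SE) of the 8 Gimap genes (red) and of 28 other tested genes within 1 Mb (grey) against distance from the middle of the cluster in kb (x axis). The grey points run from -0.70 to 0.90, and 3 red points lie above them.

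As Gimap genes are used most by lymphocytes, markers of T cells, natural killer cells and B cells were read in the same libraries. Of 126 tested genes in 10 lists, 0 passed by edgeR over all genes, against 0.0595% of all genes. At an unadjusted p under 0.05 there were 24, or 19.0%, against 6.06% of all genes. The 10 lists include stem cell, progenitor, myeloid, erythroid, endothelial, gate and Gimap partner genes. Of the 24, T cell markers held 3 of 15 tested, natural killer and innate lymphoid markers 1 of 7 and B cell markers 1 of 10. The lists were chosen with earlier results of these libraries known. DESeq2 called 2, Nkg7 among them, and limma voom called 1, against 0.492% and 0.231% of all genes. Among the genes of the T cell receptor complex and its coreceptors, Cd3e had 1 count in 8 libraries together, and Cd3d, Cd3g, Cd8a and Cd8b1 had 13, 11, 11 and 12, at most 0.442 CPM in any library. Cd247, the zeta chain of the complex, which natural killer cells also use, was present at 7.497 ± 0.880 CPM in KO and 6.95 ± 2.14 CPM in wild type (SD, n = 4 each). Trbc1, a receptor constant gene, was at 5.20 ± 2.17 CPM in KO and 2.26 ± 1.28 CPM in wild type (SD, n = 4 each). Trbc2, another receptor constant gene, was at 1.02 ± 0.524 CPM in KO and 1.26 ± 0.424 CPM in wild type (SD, n = 4 each). Trac, the constant gene of the alpha chain, did not pass the filter and reached at most 0.352 CPM in any library. Lck and Lat, signalling genes that T cells also use, stood at 72.5 ± 5.63 and 45.0 ± 11.2 CPM in KO and 71.1 ± 13.01 and 40.2 ± 7.89 CPM in wild type (SD, n = 4 each).

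Of 24 T cell markers 15 were tested, with a median log2 fold change of 0.12, 11 above and 4 below 0, and 3 higher at an unadjusted p under 0.05, which 2.78% of all genes were. The list summed to 155 to 188 CPM in KO libraries and 138 to 167 CPM in wild type libraries. Cd4, which progenitors also carry at low level, had 21.9, 14.8, 13.3 and 13.01 CPM in KO replicates 1 to 4, against 6.29, 4.32, 11.55 and 8.32 CPM in wild type replicates 1 to 4 without overlap (log2 fold change 1.05; edgeR adjusted p = 0.583). Tcf7, a transcription factor gene of early T lineage cells, had 5.03 ± 2.30 CPM in KO and 2.15 ± 0.564 CPM in wild type (SD, n = 4 each; log2 fold change 1.22; edgeR adjusted p = 0.717). Trbc1 and Zap70 gave 1.22 and 0.54, with edgeR adjusted p of 0.772 and 0.860, while Trbc2 gave -0.30 with an edgeR adjusted p = 0.916. The part of these markers in the Gimap values was not tested.

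Among natural killer and innate lymphoid markers 7 of 16 were tested, 6 above 0, with a median of 0.25. The list summed to 324 to 443 CPM in KO libraries and 192 to 289 CPM in wild type libraries. Most of each sum was Nkg7, the 1 tested gene of this list without overlap between the genotypes. Nkg7, a granule membrane protein gene of cytotoxic cells, had 259, 267, 374 and 363 CPM in KO replicates 1 to 4, against 232, 189, 157 and 125 CPM in wild type replicates 1 to 4, without overlap (log2 fold change 0.84; edgeR adjusted p = 0.392). Klrb1c, Klrd1 and Ccl5, more specific to such cells, stayed below 6 CPM in every library and gave 0.78, 0.49 and 0.25. Among B cell markers 10 of 14 were tested, 8 above 0, with a median of 0.41, and Cd79b, a chain of the B cell receptor, gave 0.53 (adjusted p = 0.772 by edgeR).

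Lymphoid-primed progenitor genes, 23 of 25 tested, were balanced in sign, with 12 above and 11 below 0 and a median of 0.02. Every KO library was above every wild type library for 3 of them and below for 0, against 2.08% and 2.11% of all genes. At an unadjusted p under 0.05 there were 4 higher and 3 lower, against 2.78% and 3.28% of all genes. Cd52, a small lymphocyte surface antigen, gave 0.69 and Ly6d 1.45, while Ltb, a lymphotoxin chain, gave -1.01, with adjusted p of 0.501, 0.541 and 0.501 by edgeR.

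Gimap genes are also used by endothelium, and 11 of 14 endothelial markers were tested, with a median of 0.08 and 6 above 0. Egfl7, which stem cells also express, gave 0.44 (adjusted p = 0.772 by edgeR), Vwf -0.52, Pecam1 0.32 and Robo4 -0.45. Long-term stem cell genes, 17 of 17 tested, had a median of -0.24 with 13 below 0. Hlf, a stem cell transcription factor gene, had 145 ± 19.3 CPM in KO and 227 ± 44.3 CPM in wild type (SD, n = 4 each; log2 fold change -0.65; edgeR adjusted p = 0.489). Slamf1, which encodes the stem cell surface marker CD150, went the other way, with 10.6, 9.25, 11.9 and 11.6 CPM in KO replicates 1 to 4, against 3.98, 4.66, 9.04 and 5.17 CPM in wild type replicates 1 to 4, without overlap (log2 fold change 0.93; edgeR adjusted p = 0.670). Mllt3 and Cdkn1c gave -0.45 and -0.75, each with an edgeR adjusted p = 0.772.

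Granulocyte and monocyte markers, 14 of 16 tested, had 4 above and 10 below 0 and a median of -0.19. Camp and Ngp, genes of neutrophil granules, gave 1.28 and 1.05, while Elane and Ly6c2 gave -1.76 and -1.48, with edgeR adjusted p of 0.741, 0.786, 0.832 and 0.832. Erythroid and megakaryocyte markers, 13 of 14 tested, had 2 above and 11 below 0 and a median of -1.001. Tspan33, Ppbp and Car1 gave -1.27, -1.91 and -2.85, with edgeR adjusted p of 0.501, 0.746 and 0.746. Wild type replicate 1 stood apart, since Elane and Car1 reached 785 and 339 CPM there and at most 123 and 41.2 CPM in any other library. It was the lowest wild type library for Gimap3 and Gimap7, and without it the log2 fold change of Gimap3 was 1.104.

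Of 10 genes tied to the LSK gate 7 were tested, 4 above and 3 below 0, with a median of 0.06. Ly6a, which encodes Sca1, had 175 ± 50.9 CPM in KO and 135 ± 51.6 CPM in wild type (SD, n = 4 each).

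The genes reported to work with Gimap proteins showed no call. All 13 members of that list were tested, GABARAP family genes and survival and death genes of the Bcl2 family among them, with 10 above and 3 below 0, a median of 0.06, and 0 past an adjusted p of 0.05 by edgeR, 0 at an unadjusted p under 0.05 and 0 by DESeq2 or limma voom. Map1lc3b, which marks autophagosomes, gave 0.19, Map1lc3a -0.23, and the death genes Bak1 and Bad gave 0.24 and 0.13.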

How the data were processed

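PolyA RNA of sorted LSK cells was sequenced in 8 libraries, 4 per genotype. Deposited values are raw counts in whole numbers by gene symbol. HISAT2 and mm10 are named for the authors' processing, per the submitters' processing notes; a version, the counting tool, the annotation and the use of strand were not given in the sources used here. Samples were grouped by the genotype and replicate number in their titles, and total counts ran from 9344779 to 15079960.

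Counts of all genes were fitted with the quasi-likelihood test of edgeR 4.0.16 (R 4.3.3), KO against wild type with no covariate, TMM scaling and filterByExpr at min.count 10 and min.total.count 15. This left 13439 of 26146 genes, over which Benjamini-Hochberg adjusted p under 0.05 was called. The common biological coefficient of variation was 27.8%. Log2 CPM used a prior count of 2. Positions, exon lengths and GC came from GENCODE M21, which held 13187 of the tested symbols; promoters came from RefSeq GRCm38.p6. The script was tested on simulated counts.

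The members and lists were chosen with earlier results of these data known. The genes named were all members; up to 4 genes per list and of the chromosome 6 neighbours with the smallest p; the nearest neighbour on each side; and the 8 genes most like the members. Of the list genes that this rule names, 2 are not reported here. Gimap1os, Kit, Lck, Lat and the Cd3 and Cd8 genes were named as overlapping or defining genes, and the genes of the closing observations after their values were seen, as were the pairs of members. Trbc2 and Trac were named beside Trbc1 after their values were seen. Alternatives were scaling by DESeq2 1.42.0 or by library size, filtering on CPM above 1 in 4 libraries or not at all, a replicate block, the DESeq2 Wald test, weighted voom of limma 3.58.1, omission of each library in turn, and a fit of the 6 libraries that had Y-linked counts. Leaving out KO replicate 4 and wild type replicate 2 together was added after seeing the data.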

Additional observations from a re-analysis of the deposited data

Results flagged for a closer look

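In 16 groups of 4 libraries, 8 members in each genotype, 2 values stood far from the other 3 libraries of their group, where chance flags about 1 in 20 groups. Gimap1 was at 386 CPM in KO replicate 4, against 265 to 285 CPM in the other KO libraries. Gimap9 was at 12.5 CPM in wild type replicate 2, whereas the remaining wild type libraries held 64.9 to 67.0 CPM. These are the libraries with the lowest summed mitochondrial mRNA of their genotype, at 6160.0 and 2437 CPM; the part of that property in the values was not tested.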

How the results depend on the processing

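Gimap3, Gimap4 and Gimap7 stayed higher in KO in each of 17 alternatives, with log2 fold changes from 1.104 to 1.499, 1.46 to 1.88 and 1.0997 to 1.34. Gimap1 and Gimap9 stayed above 0, from 0.14 to 0.41 and 0.04 to 0.61. Gimap5, Gimap6 and Gimap8 changed sign between alternatives, from -0.13 to 0.07, -0.15 to 0.23 and -0.34 to 0.05, each within the spread between replicates. The median of the 8 ran from 0.24 to 0.42, and in the 6 libraries that had Y-linked counts Gimap3, Gimap4 and Gimap7 were at 1.499, 1.68 and 1.34.

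The count of genes called over the whole table was 8 by edgeR, 66 by the DESeq2 Wald test, 31 by limma voom, 4 among libraries with Y-linked counts and 2 to 8 with single libraries left out, the lowest without KO replicate 4 or without wild type replicate 1, 2 or 3. Without KO replicate 4 and wild type replicate 2 together it was 0 by edgeR, with 525 genes at an unadjusted p under 0.05, 32 by DESeq2 and 17 by limma voom; that setting has fewer samples. Of the list genes, edgeR called 0, the DESeq2 test 2 and voom 1, and with 1 library left out the range was 0 to 0. With the replicate block 3 genes were called. The deviations showed no pairing of the samples by replicate number. Same-numbered deviations correlated at -0.19 to 0.03, and 0 of 4 KO libraries correlated best with their own number. A pairing that leaves no trace in these deviations cannot be seen this way. The cause of these differences was not tested. Gimap3 and Gimap4 had the fewest reads, at 24 to 221 counts per library, while Gimap9 had the largest SE of the family, 0.45.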

Other observations

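Genes outside the family with the deviations most like those of each pair of members were read after the pairs were seen, and are given as values. They are the highest of all genes ranked, so a high r comes in part from that choice. With the mean of Gimap6 and Gimap9 went Piga, Ddx4, Etfbkmt, Arhgap15, Arhgap15os, Tespa1, St8sia4 and Ptprc, at r between 0.988 and 0.996 over 8 libraries. Ptprc, which encodes the leukocyte antigen CD45, had 423, 455, 569 and 190 CPM in KO replicates 1 to 4, against 484, 130, 514 and 446 CPM in wild type replicates 1 to 4. Tespa1, a gene of T cell receptor signalling in thymocytes, had 163, 153, 188 and 60.3 CPM in KO replicates 1 to 4, against 115, 17.4, 119 and 102 CPM in wild type replicates 1 to 4. Both were lowest in KO replicate 4 and wild type replicate 2, as Gimap9 was.

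With the mean of Gimap1 and Gimap5 went Limd2, at r = 0.99, and Qpctl, Rsph3a and Map2k1, at 0.98 each. Limd2 had 366, 360, 365 and 470 CPM in KO replicates 1 to 4, against 310, 488, 405 and 403 CPM in wild type replicates 1 to 4, and was highest where Gimap1 was highest in each genotype. With the mean of Gimap3, Gimap4 and Gimap7 went Ap4b1 at 0.99 and Prdm16, a transcription factor gene of stem cells, at 0.96. Prdm16 had 23.1, 23.96, 11.2 and 25.0 CPM in KO replicates 1 to 4, against 19.3, 23.1, 33.6 and 24.3 CPM in wild type replicates 1 to 4, lowest in KO replicate 3 and with overlap between the genotypes.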
